A study of Marchantia polymorpha with 12 samples.

Results

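The 100 genes with the most abundant transcripts in the intact thallus of the liverwort Marchantia polymorpha are described here, with their share of the transcriptome and their levels after wounding and in the line Mperf15ko. They were chosen by measured level, as the 100 genes with the highest mean TPM in the 3 libraries of intact Tak-1 thalli, out of 19421 genes listed. TPM is a read count per transcript length, scaled so that all transcripts of a library sum to the same total, and a gene's TPM was the sum over its transcripts. All 100 genes passed the filter on low counts, as did 14246 genes in all.

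The study sequenced mRNA from 4 groups of 3 libraries. Tak-1 control and Mperf15ko control were intact thalli, and Tak-1 wounded and Mperf15ko wounded were thalli taken 1 h after the blades were wounded. All thalli were 14 days old and had been grown from gemmae on agar medium, and each library is labelled as an independent biological replicate of 12 plants. Tak-1 is the male laboratory accession of the species, and Mperf15ko is named for MpERF15, an AP2/ERF transcription factor gene. The labels give neither the lesion nor the number of lines behind Mperf15ko.

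The thallus is a flat green body that grows from notches at its tips, with photosynthetic air chambers on its upper side, rhizoids below, and cups in which gemmae form. In green plant tissue a small number of genes typically supplies a large part of the mRNA, commonly those for photosynthesis, protein synthesis and water transport. Because TPM is relative, a smaller share can come from fewer transcripts of these genes or from more transcripts of others, and in whole thalli fewer cells of a type and less RNA per cell cannot be told apart. Most of the 100 genes carry only a locus number in the reference table, so their roles are not given here. The chromosome is read from the number: Mp4g10850 lies on chromosome 4.

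Libraries held 17.2 to 30.4 M estimated reads. MpERF15 stood at 1.498 to 1.83 TPM in Tak-1 control and 20.1 to 34.7 TPM in Tak-1 wounded, and at 1.68 to 3.40 TPM in Mperf15ko control and 17.1 to 40.6 TPM in Mperf15ko wounded, so its level does not check the genotype label. Of the 3 air chamber markers, all were found, and their summed level was 65.6 to 80.8 TPM in Tak-1 control and 74.6 to 80.6 TPM in Mperf15ko control. It was 116 to 133 TPM in Tak-1 wounded and 124 to 128 TPM in Mperf15ko wounded. MpSYP13A was the highest of the 3 in each group, and the sum hides differences between them. In Mperf15ko, MpSYP13A and MpNOP1 rose with wounding, by 0.98 and 0.40 on the log2 scale (edgeR, adjusted p = 3.8e-07 and 0.0082). MpSYP13B, at 0.23, did not pass the test (adjusted p = 0.3). Between wounded genotypes MpSYP13B was lower in Mperf15ko, at -0.57 (adjusted p = 0.025). MpSYP13A and MpNOP1, at 0.22 and 0.099, did not pass (adjusted p = 0.073 and 0.54). The notch marker MpYUC2, an auxin synthesis gene, stood at 14.6 to 16.4 TPM and 16.3 to 17.4 TPM in the control groups and at 2.47 to 3.58 TPM and 3.22 to 4.84 TPM in the wounded groups, in the same order of genotypes. The gemma cup marker MpGCAM1 stood at 0.491 to 1.28 TPM and 0.277 to 0.506 TPM in the control groups and at 4.10 to 4.80 TPM and 3.56 to 3.91 TPM in the wounded groups. The germ line marker MpDUO1, the only 1 found of 3, stood at 0.117 to 0.328 TPM over the control groups and 0.538 to 1.03 TPM over the wounded groups. The 2 oil body markers found, of 3, summed to 2.00 to 6.10 TPM over all libraries, and the rhizoid marker MpRSL1 was not found. The part of these marker levels in the results was not tested. In Tak-1 wounded replicate 1 the 10 genes with the most reads took 10.9% of all reads, against 5.502% to 8.60% in the other 11 libraries.

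Levels among the 100 genes fell off steeply. The highest, Mp4g10850, averaged 24447 TPM in Tak-1 control, the median of the 100 was 2857 TPM and the lowest was 1596 TPM, a 15.3-fold range. Only 18 genes reached 5000 TPM. Mp4g10850 stood at 23262, 25754 and 24326 TPM in Tak-1 control replicates 1 to 3, and Mp7g09180, next in rank, at 12897, 12272 and 11862 TPM. Mp7g02900 followed at 10269, 11082 and 11572 TPM, and Mp4g15080 at 9880, 10566 and 9559 TPM. Mp4g10850 was thus apart from all others in every library of the group, whereas Mp7g09180 and Mp7g02900 differed in mean by more than their SDs of 521 and 658 TPM but lay near each other, and Mp4g15080 and Mp4g06050, at 10002 ± 514 and 9828 ± 628 TPM (SD, n = 3), did not differ beyond their spread. Around the limit of the list the levels were close. Those just inside the limit were Mp4g15800, Mp4g03410 and Mp2g00570 at 1657, 1618 and 1596 TPM, and those just outside were Mp5g04200, Mp2g12400 and Mp2g09440 at 1586, 1584 and 1566 TPM. Leaving out 1 Tak-1 control library in turn kept 97, 98 or 99 of the 100 genes.

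**Figure D1:**
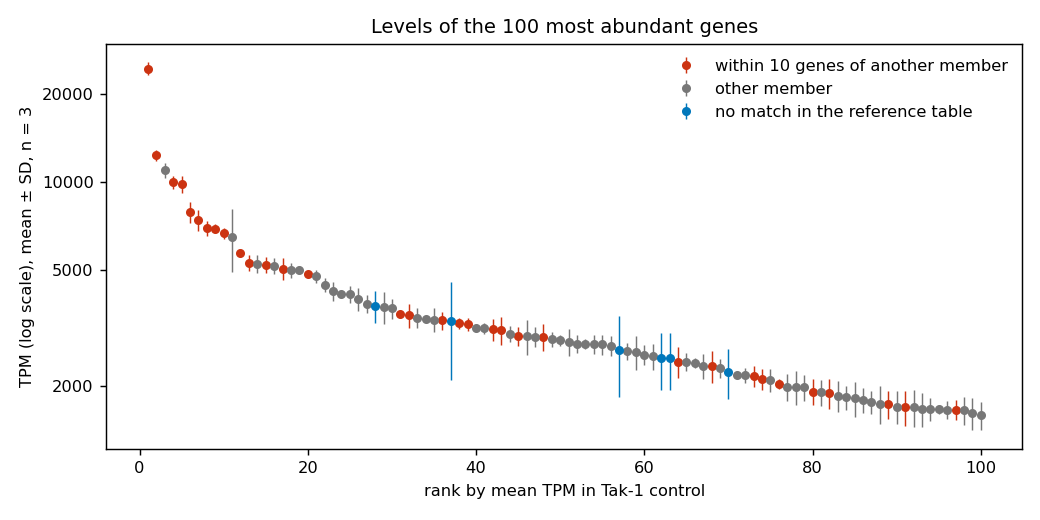
TPM in Tak-1 control (log axis, mean ± SD over 3 libraries) of each of the 100 genes against its rank by that mean. Red points are genes within 10 genes of another of the 100 in gene order, and blue points are the 6 IDs with no match in the reference table. The curve runs from 24447 TPM at rank 1 to 1596 TPM at rank 100, and Mp6g09310 at rank 11 and several blue points have the widest bars.

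Replicates were tight for most of the 100 genes. The median coefficient of variation between the 3 libraries was 7.96% in Tak-1 control, 5.91% in Mperf15ko control, 7.50% in Tak-1 wounded and 7.32% in Mperf15ko wounded. The 6 unmatched IDs varied more in 3 groups, with medians of 22.2%, 46.4% and 49.2% in the same order, but not in Mperf15ko wounded, at 5.48%. Mp6g09310, which has a match, reached 60.04% in Mperf15ko control. Salmon split reads between similar transcripts for 53 of the 100 genes, as their fractional counts show (tolerance 0.001 reads). The same held for 46.3% of the 12698 genes above 1 TPM in Tak-1 control. A gene counted if any of its transcripts was fractional, so splits within a gene are included, and counts of 100000 reads or more were not checked. The level of each of the 53 genes alone is uncertain where a near copy exists.

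The 100 genes, 0.515% of those listed, held a large share of the transcriptome of the intact thallus. Their share of all TPM was 35.7%, 37.2% and 37.4% in Tak-1 control and 36.3%, 37.4% and 37.1% in Mperf15ko control. It was 33.9%, 32.6% and 32.1% in Tak-1 wounded and 32.1%, 31.8% and 30.1% in Mperf15ko wounded. By TPM every wounded library lay below every control library, in both genotypes. Within Tak-1 this is a description only, since its control libraries chose the genes. The group means were 36.8% ± 0.914, 36.9% ± 0.530, 32.9% ± 0.896 and 31.3% ± 1.04 (SD, n = 3). In Mperf15ko, whose libraries did not choose the genes, the share was lower by 5.60 percentage points in wounded thalli (mean difference -5.60, exact 2-sided permutation test, p = 0.1, the smallest p that 3 against 3 libraries allow). The genes were chosen in intact thalli, however, which favours a lower share after wounding in either genotype. The own 100 highest genes of each library held 37.5% ± 0.671 in Mperf15ko control and 33.2% ± 1.04 in Mperf15ko wounded (SD, n = 3).

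Mp4g10850 alone made up 2.44% of TPM in Tak-1 control, the 10 highest genes 10.3%, the 20 highest 15.7% and the 50 highest 26.1%. As a share of estimated reads, which does not divide by transcript length, the 100 genes held 25.6% in Tak-1 control, 24.4% in Mperf15ko control, 22.9% in Tak-1 wounded and 19.9% in Mperf15ko wounded. By reads the Tak-1 groups overlapped, since Tak-1 wounded replicate 1 held 25.2% and Tak-1 control replicate 1 held 24.0%, whereas Mperf15ko wounded, at 19.04% to 20.7%, lay below Mperf15ko control.

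Between the wounded groups, the share was 1.54 points lower in Mperf15ko than in Tak-1 (difference -1.54, exact 2-sided permutation test, p = 0.1, again the smallest possible). A list chosen in Tak-1 favours this direction. The own 100 highest genes of each library held 33.8% ± 1.14 in Tak-1 wounded and 33.2% ± 1.04 in Mperf15ko wounded (SD, n = 3), within the spread. The 6 unmatched IDs held 3.32%, 2.46% and 1.37% of TPM in Tak-1 wounded and 0.995%, 0.947% and 0.958% in Mperf15ko wounded, a difference of -1.42 points (exact 2-sided permutation test, p = 0.1). The 94 matched genes held 30.5% ± 0.293 and 30.4% ± 1.03, a difference of -0.125 points (exact 2-sided permutation test, p = 1). Over all 100 genes the difference was -0.944 points without Mperf15ko wounded replicate 3, and over the 50 highest genes it was -0.644 points (exact 2-sided permutation test, p = 0.5).

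**Figure D2:**
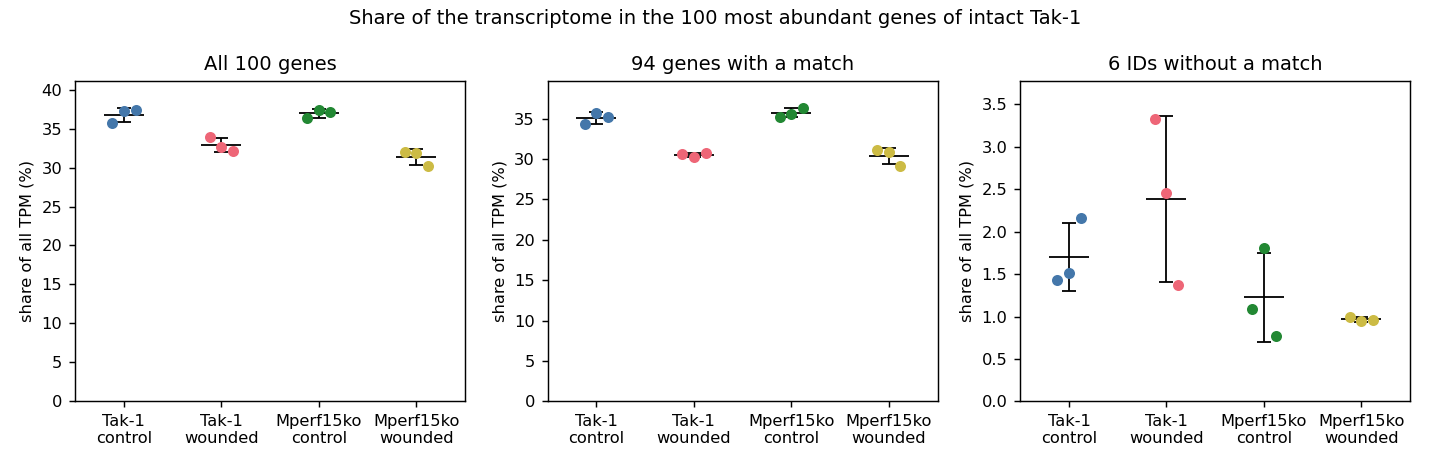
Share of all TPM (%) held by all 100 genes (left), by the 94 genes with a match in the reference table (middle) and by the 6 IDs without one (right). Points are libraries, and bars are the mean ± SD of 3 libraries. The wounded groups lie below the control groups on the left and in the middle, while on the right Tak-1 wounded spans 1.37% to 3.32% and Mperf15ko wounded stays between 0.947% and 0.995%.

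In Mperf15ko, wounding was followed by lower levels of most of the abundant genes. Of the 100, 51 fell and 8 rose (edgeR, adjusted p under 0.05), where 20.1% of all genes tested fell and 23.5% rose (43.6% in either direction). The median log2 fold change was -0.30 for the 100 genes and -0.02 for all genes. Since the genes were chosen as high in intact thalli, which favours falls with wounding, this lean is a description. The changes were mostly modest: falls ran from 0.25 to 1.22 on the log2 scale (-0.25 to -1.22), rises from 0.27 to 0.47, and 58 of the 100 genes lay below -0.25. Falls of 2-fold or more were made by 2 of the 100 genes, against 3.42% of all genes, and rises of that size by 0, against 10.9%. Of the 900 genes next in rank 27 fell and 29 rose by as much, so few large rises were not particular to the 100. In 55 of the 100 genes all 3 wounded libraries lay below all 3 control libraries, against 25.1% of all genes, and in 27 they lay above, against 27.0%.

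By rank, falls were most frequent between 21 and 50. Of the 20 highest genes 11 fell and 0 rose, of the 30 genes at ranks 21 to 50, 23 fell and 1 rose, and of the 50 at ranks 51 to 100, 17 fell and 7 rose. Among the 900 genes next in rank, 274 fell and 162 rose. Called in either direction were 55%, 80% and 48% of the rank classes, in that order, and 48.4% of the 900. Of all genes tested 43.6% were called (20.1% lower and 23.5% higher). The highest gene, Mp4g10850, stood at 29385, 31428 and 31589 TPM in Mperf15ko control and 28426, 27850 and 24656 TPM in Mperf15ko wounded. The groups do not overlap, but the difference of -0.18 (SE 0.11) missed the threshold (adjusted p = 0.18). The count of falls varied from 44 to 57 over the other normalizations, tools, the paired fit and left-out libraries, whereas that of rises was less stable: 3 with upper quartile scaling, 4 without Mperf15ko control replicate 3, 13 with DESeq2 and 14 when only the groups compared were fitted.

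**Figure D3:**
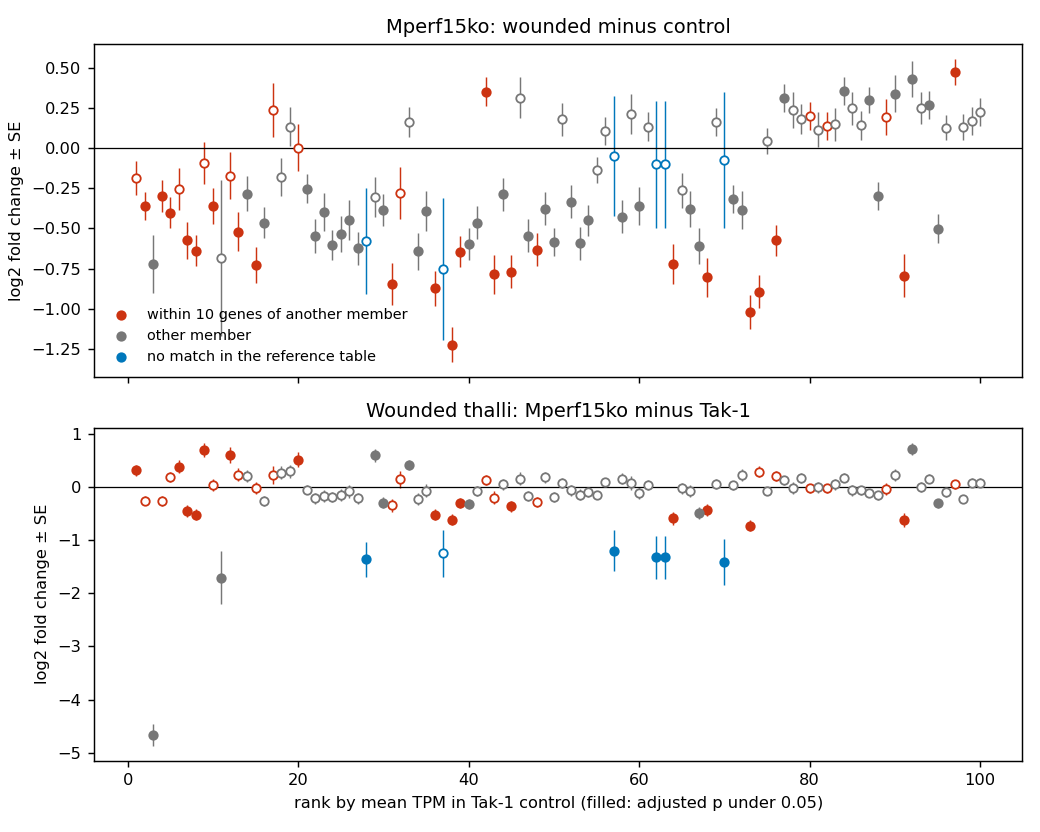
Log2 fold change ± SE (edgeR) of each of the 100 genes against its rank in Tak-1 control, for wounded against control Mperf15ko thalli (top) and for Mperf15ko against Tak-1 in wounded thalli (bottom). Filled points have an adjusted p under 0.05, and colours are as in the plot of levels. At the top most filled points lie between -0.25 and -1.22 and the 8 filled points above zero reach 0.47, and at the bottom Mp7g02900 lies alone at -4.66.

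The falls of 2-fold or more in Mperf15ko were those of Mp7g06780 and Mp4g05960. Mp7g06780 stood at 2385, 2117 and 2262 TPM in control and 1087, 824 and 980 TPM in wounded Mperf15ko, a log2 fold change of -1.22 (SE 0.11, adjusted p = 4.4e-07). Mp4g05960 stood at 1466, 1231 and 1232 TPM in control and 694, 573 and 667 TPM in wounded Mperf15ko, a log2 fold change of -1.02 (SE 0.11, adjusted p = 2.5e-06). In both genes the lowest control library was well above the highest wounded library. Mp7g06780 stood at 3323, 3401 and 3137 TPM in Tak-1 control and 1294, 1492 and 1658 TPM in Tak-1 wounded. The Tak-1 control libraries chose the genes, so these Tak-1 values are a description only.

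Both genes lie in stretches of the genome where several of the most abundant genes are neighbours. By the gene order of the reference table, 33 of the 94 genes with a position lay within 10 genes of another of the 94, in 12 runs. A limit of 5 genes gave 21 genes in 7 runs, and a limit of 20 gave 41 genes in 16 runs. How many of 94 other genes would lie as close was not examined, so these counts are a description. The 33 genes held 16.8% of TPM in Tak-1 control, 18.7% in Mperf15ko control, 14.1% in Tak-1 wounded and 15.3% in Mperf15ko wounded. After wounding of Mperf15ko 21 of the 33 fell and 2 rose, and of the 61 matched genes outside runs 30 fell and 6 rose. Called in either direction were 69.7% and 59.0%, against 43.6% of all genes (20.1% lower and 23.5% higher).

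The run with the most of these genes was Mp4g05960 to Mp4g06050 on chromosome 4, where 6 of 10 consecutive genes were among the 100. The summed level of the 6 was 24302, 23183 and 23506 TPM in Mperf15ko control and 17607, 14982 and 15612 TPM in Mperf15ko wounded. In Tak-1 it was 24746, 28424 and 26914 TPM in control and 16974, 17677 and 18219 TPM in wounded thalli. The wounded libraries lay below the controls in both genotypes, with no overlap. For Tak-1 this is a description only, since its control libraries chose the genes. All 6 genes fell in Mperf15ko, by 0.40 (Mp4g06050, log2 fold change -0.40, adjusted p = 0.0042) to 1.02 (Mp4g05960) on the log2 scale. The 4 genes between them, at ranks 141 to 502, fell too, with log2 fold changes of -1.11 to -0.50. All 6 had fractional counts, so how reads were split among similar transcripts affects each gene's own level.

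The run Mp7g06610 to Mp7g06790 on chromosome 7 held 5 of the 100 among 18 genes. Their summed level was 19037, 16406 and 19040 TPM in Mperf15ko control and 11528, 9571 and 11174 TPM in Mperf15ko wounded, and 22595, 23611 and 21035 TPM and 11601, 13605 and 15566 TPM in the same states of Tak-1. Again no wounded library reached the control libraries of its genotype, which for Tak-1 is a description only. All 5 fell in Mperf15ko, from -0.57 in Mp7g06710 (SE 0.12, adjusted p = 0.001) to -1.22 in Mp7g06780. Of the other 13 genes of the stretch 9 were tested, and 7 of these fell and 1 rose. On the same chromosome the neighbours Mp7g05880 and Mp7g05890, summed, stood at 3696, 2711 and 3455 TPM in Mperf15ko control and 2031, 1788 and 1971 TPM in Mperf15ko wounded, and both fell.

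Runs did not all fall. On chromosome 2 the 3 adjacent genes Mp2g12010, Mp2g12020 and Mp2g12030 did not pass the test after wounding of Mperf15ko, with log2 fold changes of -0.09, 0.00 and -0.25 (adjusted p = 0.59, 0.99 and 0.13). Without Mperf15ko wounded replicate 2, Mp2g12030 passed, at -0.44 (adjusted p = 0.0076). Within the run Mp3g20850 to Mp3g20970 the ends moved apart: Mp3g20850 rose by 0.35 (SE 0.09, adjusted p = 0.0062) and Mp3g20970 had a log2 fold change of -0.89 (SE 0.11, adjusted p = 6.8e-06). These were picked out after their values were seen.

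The 8 rises in Mperf15ko were small and lay mainly in the lower ranks. They were Mp3g20850, Mp7g14520, Mp1g06260, Mp2g16300, Mp1g26960, Mp6g20570, Mp6g11950 and Mp4g23990, named because they are all the rises. Mp4g23990 had the largest, from 1627, 1581 and 1488 TPM in control to 2082, 2139 and 2287 TPM in wounded Mperf15ko (log2 fold change 0.47, SE 0.08, adjusted p = 2e-04). Mp6g20570 went from 2190, 2148 and 2355 TPM to 3000, 3039 and 2955 TPM (0.43, SE 0.11, adjusted p = 0.0063). Neither gene's groups overlapped.

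In Tak-1, whose control libraries chose the genes, the values are a description only. After wounding 47 of the 100 genes were called lower and 1 higher, beside 22.8% and 23.4% of all genes (46.2% in either direction), with a median log2 fold change of -0.23 against -0.05 for all genes. Falls of 2-fold or more were 3, beside 3.19% of all genes, and rises of that size 0, beside 11.2%. Nothing is read from these counts. Without Tak-1 control replicate 3 they were 45 lower and 26 higher, and DESeq2 called 7 higher. Mp4g10850 stood at 20378, 21190 and 23675 TPM in Tak-1 wounded, of which the highest exceeded the lowest control library.

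The difference between the wound responses of the genotypes, also a description, was called for 0 of the 100 genes by edgeR, limma and DESeq2, against 1.07% of all genes by edgeR (0.4% higher and 0.667% lower). At an unadjusted p under 0.05 edgeR had 0, limma 0 and DESeq2 2 of the 100. The fitted differences ran from -1.32 (Mp6g09310) to 0.33 (Mp6g20570) on the log2 scale. These values do not show that the responses were alike.

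In wounded thalli the genotypes differed in fewer of the abundant genes. In Mperf15ko 21 of the 100 were lower and 8 higher than in Tak-1 (edgeR, adjusted p under 0.05), beside 11.7% and 11.8% of all genes (23.5% in either direction). The median log2 difference was -0.05 for the 100 and 0.02 for all genes. Differences of 2-fold or more were all on the lower side, in 7 genes against 5.16% of all genes, where 1.8% of all genes were higher by as much. Of the 7, 5 are unmatched IDs. The genes were chosen as high in Tak-1, which favours genes lower in Mperf15ko and leaves out genes high only there. The lean to lower values is therefore a description. In 30 genes all Mperf15ko libraries were below all Tak-1 libraries and in 19 all were above, against 17.8% and 20.96% of all genes. The 29 calls depended on single libraries: 16 were made without Tak-1 wounded replicate 2 (11 lower, 5 higher) and 13 without Mperf15ko wounded replicate 2 (8 lower, 5 higher). Without Mperf15ko wounded replicate 3 there were 24, of which 13 were lower and 11 higher.

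Mp7g02900 was the exception in size. In Tak-1 it was the third most abundant gene of the intact thallus, at 10269, 11082 and 11572 TPM, and stood at 8907, 10134 and 8755 TPM after wounding. In Mperf15ko it stood at 554, 795 and 455 TPM in control and 309, 436 and 343 TPM in wounded thalli. No Mperf15ko library came near any Tak-1 library. In wounded thalli the gene was 25.3-fold lower in Mperf15ko (log2 difference -4.66, SE 0.21, adjusted p = 6.3e-08), with -4.85 to -4.59 over the alternatives, and in control thalli the log2 difference, as a description, was -4.20. It fell from rank 3 in Tak-1 control to rank 272 in Mperf15ko control and rank 438 in Mperf15ko wounded. Within Mperf15ko it fell further with wounding, by 0.72 on the log2 scale (-0.72, SE 0.18, adjusted p = 0.0053). Its counts were fractional, so some of its reads were shared with a similar transcript.

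A gene outside the 100 showed the reverse. Mp7g01940, at rank 1031 in Tak-1 control, stood at 138, 126 and 123 TPM there and at 143, 162 and 161 TPM in Tak-1 wounded. It reached 1580, 1398 and 3023 TPM in Mperf15ko control, where it ranked 71, and 1198, 1210 and 2337 TPM in Mperf15ko wounded. All Mperf15ko libraries were above all Tak-1 libraries, and the log2 difference in wounded thalli was 3.34 (SE 0.32). The gene was picked for its level in Mperf15ko control, so these values are a description.

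**Figure D4:**
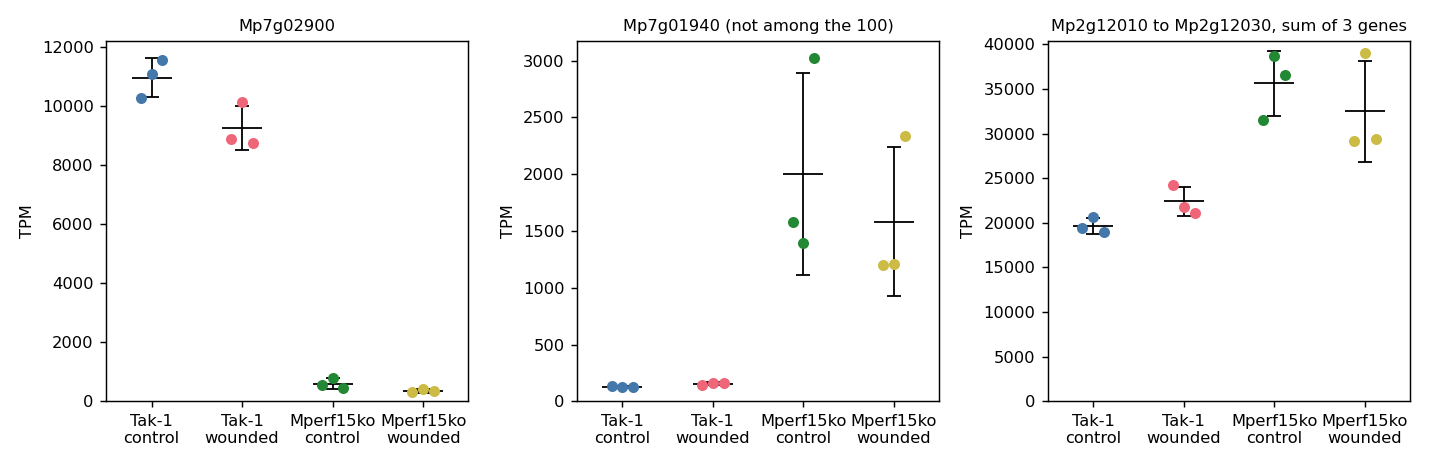
TPM by library of Mp7g02900 (left), of Mp7g01940, which is not among the 100 (middle), and of the sum of the adjacent genes Mp2g12010, Mp2g12020 and Mp2g12030 (right), with the mean ± SD of 3 libraries. Mp7g02900 spans 309 to 795 TPM over the Mperf15ko libraries and 8755 to 11572 TPM over the Tak-1 libraries, and in the other 2 panels every Mperf15ko library is above every Tak-1 library.

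The genes higher in wounded Mperf15ko were Mp4g10850, Mp2g12030, Mp2g12010, Mp2g07490, Mp2g12020, Mp4g13730, Mp4g10350 and Mp6g20570. Summed, Mp2g12010 to Mp2g12030 stood at 24240, 21792 and 21137 TPM in Tak-1 wounded and 29109, 38989 and 29380 TPM in Mperf15ko wounded. In control thalli the sum was 19457, 20650 and 18920 TPM in Tak-1 and 31517, 38700 and 36584 TPM in Mperf15ko. Every Mperf15ko library was above every Tak-1 library, and Mperf15ko wounded replicate 2 was far above the other libraries of its group. The log2 differences in wounded thalli were 0.71 in Mp2g12010 (SE 0.13, adjusted p = 0.0017), 0.53 in Mp2g12020 (SE 0.15, adjusted p = 0.02) and 0.39 in Mp2g12030 (SE 0.13, adjusted p = 0.042). Without Mperf15ko wounded replicate 2 the last 2 were 0.33 (adjusted p = 0.11) and 0.20 (adjusted p = 0.25), and the call for Mp2g12030 was lost in 13 of 19 alternatives. In the same direction Mp2g07490 stood at 6734, 5994 and 5788 TPM in Tak-1 wounded and 8638, 11698 and 7725 TPM in Mperf15ko wounded (0.61, SE 0.15, adjusted p = 0.0093). Its call held in all 19 alternatives.

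Mp6g20570 differed most among the higher genes, at 2044, 1661 and 1743 TPM in Tak-1 wounded and 3000, 3039 and 2955 TPM in Mperf15ko wounded (log2 difference 0.73, SE 0.11, adjusted p = 5.4e-04). The most abundant gene, Mp4g10850, was 0.33 higher (SE 0.11, adjusted p = 0.04), a call lost in 12 of 19 alternatives. Among the lower genes, Mp4g05960 and Mp7g06780 had log2 differences of -0.72 (adjusted p = 4.3e-04) and -0.61 (adjusted p = 0.0015), and 3 genes of each of their runs were lower.

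The remaining differences of 2-fold or more were those of Mp6g09310 and of 5 unmatched IDs, and they rest on libraries that vary widely. Mp6g09310, with a transcript of 467 bases and whole counts, stood at 13853, 11764 and 4940 TPM in Tak-1 wounded and 3963, 2657 and 2717 TPM in Mperf15ko wounded (log2 difference -1.70, SE 0.50, adjusted p = 0.037). In controls it stood at 5549, 5644 and 8301 TPM in Tak-1 and 3649, 8532 and 2975 TPM in Mperf15ko, so the control groups overlap. Within the wounded groups the libraries do not overlap, but Tak-1 wounded replicates 1 and 2 were far above replicate 3.

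The 6 unmatched IDs also varied between libraries. They include Mp8g19030, MpVg01240, Mp3g25510, Mp4g24140 and MpVg01290, of which a pair lies on the male V chromosome, and the reference table comes from the female accession Takaragaike-2. Together they held 1.43%, 1.51% and 2.16% of TPM in Tak-1 control, 1.09%, 1.81% and 0.774% in Mperf15ko control, and the shares of wounded thalli given above. Tak-1 control replicate 3, Mperf15ko control replicate 2 and Tak-1 wounded replicate 1 were the highest of their groups, as they were for Mp6g09310. Mp4g24140 and MpVg01290 both have transcripts of 3965 bases.

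In Mp8g19030 the wounded libraries stood at 4373, 5525 and 3248 TPM in Tak-1 and 1554, 1776 and 1777 TPM in Mperf15ko, without overlap (log2 difference -1.35, SE 0.33, adjusted p = 0.017). Its call was lost without Tak-1 wounded replicate 2 (-1.19, adjusted p = 0.059), Mperf15ko wounded replicate 1 (-1.33, adjusted p = 0.058) or Mperf15ko wounded replicate 2 (-1.42, adjusted p = 0.052). MpVg01290 differed by -1.40 (adjusted p = 0.044), Mp4g24140 by -1.32 (adjusted p = 0.041), and Mp3g25510 by -1.19 (adjusted p = 0.047). MpVg01240, at -1.24, missed the threshold (adjusted p = 0.072). Without Tak-1 wounded replicate 1 these values were -0.96 in MpVg01290 (adjusted p = 0.11), -0.89 in Mp4g24140 (adjusted p = 0.11), -0.62 in Mp3g25510 (adjusted p = 0.095) and -1.41 in Mp6g09310 (adjusted p = 0.089). Calls were lost in 10 of 19 alternatives for Mp6g09310 and Mp4g24140, in 12 for MpVg01290 and in 13 for Mp3g25510, the other libraries included. In the Mperf15ko wound response none of the 6 passed the test, but Mp8g19030 did without Mperf15ko control replicate 3 (-0.90, adjusted p = 0.009).

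**Figure D5:**
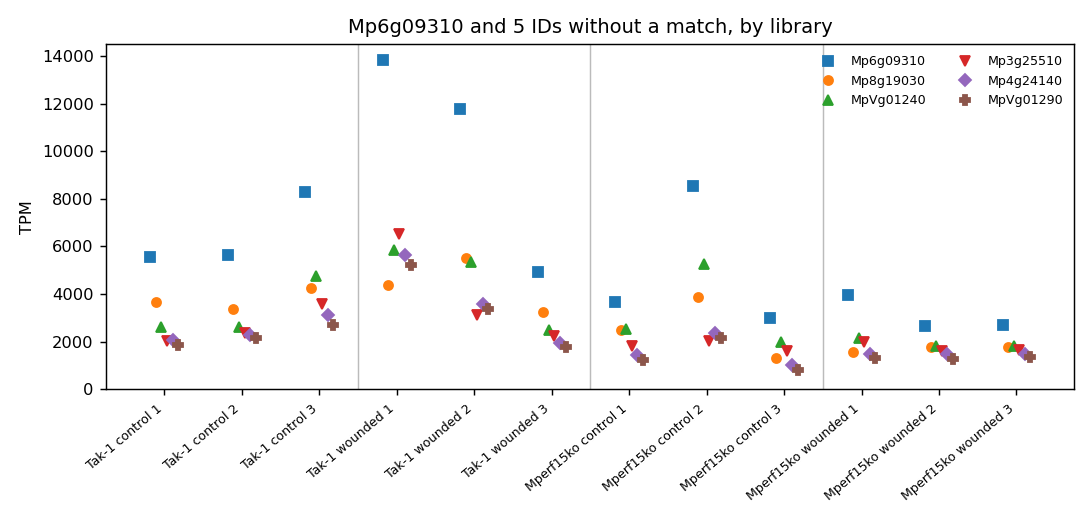
TPM of Mp6g09310 and of 5 IDs without a match in the reference table in each of the 12 libraries. Mp6g09310 stood at 13853 and 11764 TPM in Tak-1 wounded replicates 1 and 2, at 8532 TPM in Mperf15ko control replicate 2 and at 8301 TPM in Tak-1 control replicate 3, while Mp3g25510 was at 6541 TPM in Tak-1 wounded replicate 1 and 3124 TPM in replicate 2.

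In control thalli, where the Tak-1 libraries chose the genes, 17 of the 100 were called lower and 13 higher in Mperf15ko, beside 14.6% and 13.6% of all genes (28.1% in either direction). The median log2 difference was -0.09 against -0.01 for all genes, and nothing is read from these counts. They moved with single libraries: 5 were higher without Tak-1 control replicate 1 and without Mperf15ko control replicate 3, 11 were lower without Tak-1 control replicate 2, and 9 were lower without Mperf15ko control replicate 2. Differences of 2-fold or more were 1 in each direction, Mp2g12010 at 1.02 (1.52% of all genes were higher by as much) and Mp7g02900 at -4.20 (5.02% lower).

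Of the 100 genes only 4 carry a symbol, against 18.6% of the 12698 genes above 1 TPM in Tak-1 control, so the known roles cover a small part of the list. They are 2 aquaporins, which let water cross membranes, a translation elongation factor and an enzyme of sugar metabolism. MpTIP1 (Mp1g20890), named as a tonoplast intrinsic protein, an aquaporin type of the vacuole membrane, stood at 6612, 6679 and 7560 TPM in Mperf15ko control and 5931, 5450 and 5699 TPM in Mperf15ko wounded. These do not overlap, and the log2 fold change was -0.28 (SE 0.11, adjusted p = 0.049), a call lost in 8 of 19 alternatives. Libraries whose removal ended it were Tak-1 control replicate 1, Mperf15ko control replicates 1 and 3, Tak-1 wounded replicate 2 and Mperf15ko wounded replicates 2 and 3, with adjusted p from 0.05 to 0.17. MpPIP2 (Mp4g17210), named as a plasma membrane intrinsic protein, stood at 3494, 3626 and 3868 TPM in Mperf15ko control and 3068, 2744 and 2607 TPM in Mperf15ko wounded, without overlap (-0.38, SE 0.10, adjusted p = 0.0085).

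In Tak-1, MpTIP1 averaged 5261 ± 363 TPM in control and 4940 ± 787 TPM in wounded thalli (SD, n = 3), within the spread. MpPIP2 averaged 2902 ± 166 and 2480 ± 206 TPM there. Neither passed the test between genotypes in wounded thalli (log2 differences 0.22 and 0.19, adjusted p = 0.16 and 0.19). The aquaporin list holds 6 genes. In the Mperf15ko wound response 2 of the 6 fell, the pair above, and 1 rose, beside 20.1% and 23.5% of all genes: MpNIP, named as a nodulin 26-like intrinsic protein, from 4.87 ± 0.623 to 9.87 ± 2.11 TPM (1.03, SE 0.18, adjusted p = 3e-04). MpTIP2, MpPIP2-like and MpPIP1 averaged 117, 4.76 and 0.573 TPM in Mperf15ko control and did not pass the test.

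MpEF1 (Mp3g23400), named as elongation factor 1, which brings tRNAs to the ribosome, stood at 2851, 3003 and 3006 TPM in Mperf15ko control and 2636, 2635 and 2758 TPM in Mperf15ko wounded. The groups do not overlap, but the log2 fold change of -0.14 (SE 0.08) did not pass the test (adjusted p = 0.19). MpFBA2 (Mp6g07690), named as a fructose-bisphosphate aldolase, an enzyme of glycolysis and, in plastids, of the Calvin cycle, stood at 2085, 2116 and 2080 TPM in Mperf15ko control and 1762, 1642 and 1612 TPM in Mperf15ko wounded. It fell without overlap (-0.32, SE 0.09, adjusted p = 0.0081). Of the 4 aldolases with a symbol 3 fell and 0 rose, beside 20.1% and 23.5% of all genes. These 4 were found by an abbreviation added after the table was seen. MpFBA3 was at -0.48 (adjusted p = 2.9e-04) and MpFBA4 at -1.04 (adjusted p = 5.9e-07). MpFBA2 was by far the highest, and MpFBA4, MpFBA3 and MpFBA1 averaged 282, 391 and 55.5 TPM in Tak-1 control.

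Other families known for abundant transcripts in plants had no gene with a symbol among the 100. Of their genes with a symbol, the highest in Tak-1 control were MpACT1, an actin, at rank 162, and MpCAT2, a catalase, at rank 175. The lipid transfer protein gene MpLTP-like66 was at rank 178, the histone gene MpH3.3b at rank 223, and MpRBCS, named for the small subunit of Rubisco, at rank 340. Whether genes of these families without a symbol are among the 100 was not examined. Light-harvesting, Rubisco activase, photosystem, ribosomal protein, ubiquitin, germin and S-adenosylmethionine synthetase genes carry no such symbols in the table, so their place in the list is not given.

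The 100 genes had short transcripts, but the choice by TPM itself favours these, since TPM divides reads by transcript length. Of the 100, 74 were also among the 100 highest by CPM, a read count scaled to library size but not to length. How far the choice by TPM accounts for the short lengths was not tested. The longest transcripts of the 100 genes had a median of 1071.5 bases, from 330 to 4914, against 2277 bases for the 12698 genes above 1 TPM. A single transcript was listed for 88% of the 100 and for 80.6% of those genes. Chromosome 4 held 25 of the 100 and chromosome 7 held 18, that is 25% and 18% against 12.5% and 10.2%, and chromosomes 5 and 8 held 5 and 3.

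The 100 highest genes of the other groups were largely the same. Of the 100 genes, 89 were among the 100 highest of Mperf15ko control, 89 among those of Tak-1 wounded and 81 among those of Mperf15ko wounded. By library the count was 92 to 97 in Tak-1 control, 87 to 92 in Mperf15ko control, 85 to 91 in Tak-1 wounded and 80 to 82 in Mperf15ko wounded. The 19 that left in Mperf15ko wounded include 4 genes of the chromosome 4 run, Mp4g05960, Mp4g05970, Mp4g05980 and Mp4g06010, and 3 of the chromosome 7 run, Mp7g06610, Mp7g06760 and Mp7g06780. The lowest of the 100 there was Mp7g02900, at rank 438.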

How the data were processed

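RNA from 12 libraries (4 groups of 3) was analysed. Libraries were made with a stranded mRNA kit, per the labels' protocols, and CASAVA and Salmon 0.7.2 are listed in the submitters' processing notes. Neither the annotation nor the genome build is stated in the labels or headers. Per the file headers, each deposited table lists transcripts with length, effective length, TPM and an estimated count of reads. The authors' TPM values and estimated counts cover 24751 transcripts, and the deposited lengths, in bases, gave the other unit used. Effective lengths were equal in 12 of 12 files, and 31.7% to 36.7% of the deposited counts per library were fractional.

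Transcripts were summed per gene, and counts were rounded. edgeR 4.0.16 (R 4.3.3; TMM, filterByExpr, robust quasi-likelihood fit of 4 group means over 12 libraries, Benjamini-Hochberg over 14246 genes) tested 5 contrasts, with calls at an adjusted p under 0.05. The common biological coefficient of variation was 0.126. Gene levels are TPM and fold changes come from the counts. Depth was 17.2 to 30.4 M estimated reads. The fit was tested on simulated data.

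The members, gene lists and markers were chosen with earlier results of these data known. Contrasts that use the Tak-1 control libraries, which chose the genes, are given without p-values. The other contrasts share the genotype or the intact state with those libraries, so the choice can favour lower values there too. Alternatives were DESeq2 size factors, upper quartile scaling, no filter, a replicate block, only the groups compared, each library left out, limma 3.58.1 on log2(TPM + 1), DESeq2 1.42.0, other choices of members and, added after seeing the data, members with a match only. Genes named were the 20 highest, those changed 2-fold or more in a tested contrast, those at the limit of the list and the 5 highest that entered the list of another group. Genes named beyond these, the genes with a symbol and the members of runs among them, were chosen after their values were seen. Names and gene order came from a RefSeq table of assembly MpTak2_v7.1, where 17386 of 19421 IDs (89.5%) and 94 of the 100 genes matched. Families were found by symbol only, since sequences were not used here, and the abbreviation FBA was added after the table was seen. Promoter motifs were not analysed here, and 1 of the 100 genes is not reported by itself.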

Additional observations from a re-analysis of the deposited data

How the results depend on the processing

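With 3 libraries a group, an exact test of the shares cannot go below p = 0.1, and depth, whose part was not tested, was 17.2 M estimated reads or more. With each library left out in turn, the members called ranged from 50 to 65 in the Mperf15ko wound response, 13 to 30 between genotypes in wounded thalli, 45 to 71 in the Tak-1 wound response, 20 to 32 between genotypes in control thalli and 0 to 0 for the difference between the responses. The share of TPM then ranged from -5.96 to -5.00 points with wounding in Mperf15ko and from -1.92 to -0.944 points between the wounded groups. With a replicate block 19 members, not 29, were called between genotypes in wounded thalli, and 56 in the Mperf15ko wound response. Replicate numbers did not pair the libraries: deviations of same-numbered libraries correlated at -0.30 to 0.21, and 4 of 12 libraries correlated best with their own number. The paired permutation of the shares gave p = 0.25 in both comparisons. With the 50 highest genes, 35 (70%) were called in the Mperf15ko wound response and 18 (36%) between wounded genotypes, and with the 200 highest 110 (55%) and 47 (23.5%). The 100 highest by CPM, of which 74 are members, gave 66 and 34, DESeq2 66 and 37, limma 60 and 29. Upper quartile scaling moved the median of all genes by -0.12 in the Mperf15ko and -0.13 in the Tak-1 wound response. Without the 6 unmatched IDs, an alternative chosen after seeing the data, 59 and 24 were called. Named genes gave 1140 values over the alternatives, of which 994 kept their side of the threshold. Called values among these kept their direction, and uncalled values lay within the SE of the main value. A further 100 lost the call, 29 gained it, and 17 without a call moved by more than that SE. Among values called in the main fit or the alternative, 0 reversed, and the sign of values called in neither was not checked. The share differed between the wounded groups by -0.644 points over the 50 highest genes (p = 0.5) and by -1.50 points over the 200 highest (p = 0.2, exact permutation tests). The causes were not tested.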

Other observations

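Some genes outside the 100 were among the 100 highest of another group. In Mperf15ko wounded these were 19. They were picked for their level there, so the values are a description with no test. Mp2g12400 averaged 1596 TPM in Mperf15ko control and 1675 TPM in Mperf15ko wounded. Mp2g19940 stood at 1735, 1757 and 1738 TPM in Mperf15ko control and 4546, 4853 and 4196.5 TPM in Mperf15ko wounded (log2 fold change 1.38), and ranked 107 in Tak-1 control and 14 in Mperf15ko wounded. Mp5g03550 stood at 1615, 1441 and 1760 TPM and 3923, 3639 and 4738.5 TPM in the same groups (1.35), and went from rank 181 in Tak-1 control to rank 19. Mp4g23890 stood at 1288, 1277 and 1525 TPM and 2492, 2641 and 2450 TPM (0.90). In Tak-1 the means went from 1542 to 3639, 938 to 2959 and 884 to 1966 TPM, in the order named.

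Mp1g00920 entered in Mperf15ko wounded, from 1467.5 ± 28.5 to 2037 ± 60.6 TPM (SD, n = 3). Mp3g00340, which entered in Mperf15ko control, stood at 1446, 1125 and 1322 TPM in Tak-1 wounded and 1827, 2264 and 1605 TPM in Mperf15ko wounded. These do not overlap, and the log2 difference, as a description, was 0.56 (SE 0.15).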
